A study of Mus musculus with 33 samples.

Results

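The RP-6306-treated tumours of 2 sets of mouse mammary tumours were compared with each other. The set members were chosen by sample title: 11 tumours whose titles begin with MYT were set against 4 tumours whose titles end in M20_7, and these 15 libraries make up 15 of the 33 in the series. RP-6306 is an orally given inhibitor of the kinase PKMYT1. Both groups carried the FVB genotype label, grew as mammary tumours transplanted into mice, and received RP-6306 at 20 mg/kg, which the treatment field gives as 2 times daily and the protocol as a daily dose. The series was set up to profile cyclin E transgenic tumours under PKMYT1 inhibition over different periods, and cyclin E against PyMT tumours. Vehicle tumours, 4 titled VEH and 3 titled VEH_7, were compared as a background without the drug. They were paired with MYT and M20_7 by the suffix of their titles only. No label used here states that VEH and MYT tumours share a tumour line. The labels used here leave out the period of treatment, the tumour line of each set, the meaning of the suffix _7, the host's immune status and whether each library came from a separate mouse. The drug was common to both groups, so a difference between MYT and M20_7 tumours is a difference between sets, in which tumour line, period and processing cannot be told apart, and p-values measure only the spread between these samples. Among the MYT titles, 5 have numbers in the 400s, 5 in the 2600s and 2700s, and 1 is MYT968.

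PKMYT1 and its relative WEE1 hold the mitotic kinase CDK1 inactive by phosphorylating it, and cyclin B with the CDC25 phosphatases switches it on. Cells with excess cyclin E enter replication under stress and lean on this brake. Mammary carcinomas range from luminal tumours, whose cells keep keratins, E-cadherin and tight junctions, to mesenchymal or claudin-low tumours, whose cells lack these and express transcription factors such as ZEB1 together with matrix genes.

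The M20_7 libraries held 26769732 to 34637096 counts and the MYT libraries 13701115 to 20105407. Counts of mitochondrially encoded genes made up 1.33% to 1.58% of M20_7 and 2.18% to 4.49% of MYT libraries. The first principal component of the 15 libraries held 77.0% of the variance and separated the groups, with M20_7 between -124.6 and -118.4 and MYT between 23.3 and 53.1. MYT replicates 8 and 10 lay nearest to M20_7, at 23.3 and 26.5. The mean correlation across genes of M20_7 libraries was 0.986 with VEH_7, 0.935 with VEH and 0.835 with MYT libraries, so that the drug-treated M20_7 tumours lay closer to both vehicle groups than to the other drug-treated tumours. MYT libraries had mean correlations of 0.868 with VEH and 0.833 with VEH_7, whereas VEH and VEH_7 had 0.936 with each other. MYT thus lay apart from both vehicle groups as well as from M20_7. These correlations are across genes, which are not independent replicates.

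With edgeR's quasi-likelihood test, 10578 of 16269 tested genes differed between the sets at a Benjamini-Hochberg adjusted p under 0.05, which is 65% of those tested. MYT was higher for 5513 (33.9%) and lower for 5065 (31.1%), and every count of list members below is read against these shares. The median absolute log2 difference over all tested genes was 0.67, against 0.41 for the vehicle groups. For 2265 genes (13.9%) the 95% interval of the log2 difference lay within ±0.5. All log2 differences are MYT minus M20_7, so positive values mean higher in MYT. Levels are given as CPM, counts scaled by library size, and are compared between groups, not between genes. Most genes named below were picked by their p or size in this same comparison. Lack of overlap between the groups therefore describes these genes and adds no support. The share of all tested genes without overlap was not counted.

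Luminal epithelial genes were higher in MYT than in M20_7 tumours, and the M20_7 libraries held little RNA of the keratin and adhesion genes that define epithelium. Of 30 tested luminal genes 28 were higher and 1 lower, with a median log2 difference of 7.08 against 0.05 over all genes. The exception, chosen after its values were seen, was Esr1, the oestrogen receptor (log2 difference -0.76 ± 0.23 SE). Epcam, an epithelial adhesion molecule also added after its values were seen, ranged in MYT from a lowest value of 969, a median of 1426 and a highest value of 1934 CPM, and stood at 3.59, 5.35, 1.79 and 5.22 CPM in M20_7 replicates 1 to 4. Its log2 difference was 8.51 ± 0.38 (SE; edgeR adjusted p = 5.65e-12). Every MYT library lay far above every M20_7 library. In these bulk samples, fewer cells of a type and less RNA per cell cannot be told apart.

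Esrp2, which encodes a splicing regulator of epithelial cells, had a lowest value of 73.8, a median of 101 and a highest value of 113 CPM in MYT and 0.605, 0.317, 0.861 and 0.776 CPM in M20_7 (log2 difference 7.31 ± 0.23 SE, edgeR adjusted p = 1.67e-13). Prom1, a membrane glycoprotein of luminal progenitors, ranged over 61.9 to 116 CPM (median 88.2) in MYT and stood at 0.227, 0.317, 0.0319 and 0.279 CPM in M20_7 (log2 difference 8.69 ± 0.33 SE, edgeR adjusted p = 1.03e-12). Ehf, an ETS factor of epithelia, ranged over 182 to 322 CPM (median 241) against 0.265, 0.691, 0.0638 and 0.5899 CPM (log2 difference 9.22 ± 0.39 SE, edgeR adjusted p = 3.31e-12). The groups did not overlap for Esrp2, Prom1 or Ehf. The mammary origin given by the labels was checked on Krt8, a luminal keratin, and Elf5, an alveolar transcription factor. Krt8 stood at 16.3, 13.2, 8.39 and 13.1 CPM and Elf5 at 0.643, 0.9498, 0.191 and 1.21 CPM in M20_7, against lowest MYT values of 946 and 62.4 CPM. Defining epithelial markers were thus near 0 or low in the M20_7 tumours labelled mammary, and abundant in MYT.

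**Figure D1:**
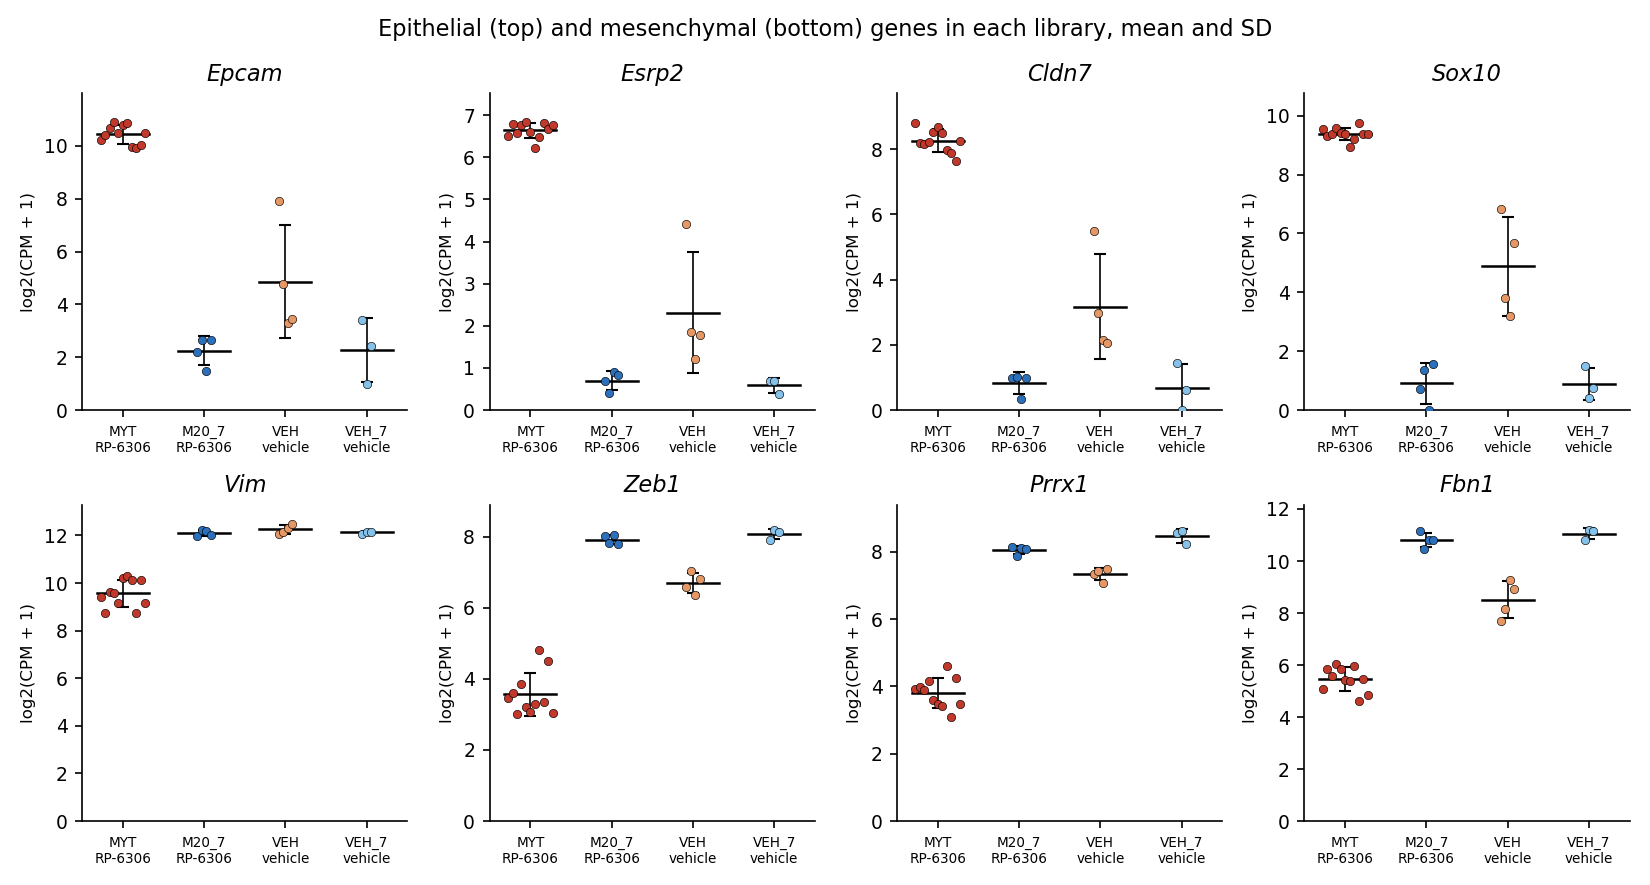
Levels of 4 epithelial genes (top row) and 4 mesenchymal genes (bottom row) as log2(CPM + 1) on the vertical axis, 1 point per library, with the group mean as a line and the SD as a bar, in MYT (n = 11), M20_7 (n = 4), VEH (n = 4) and VEH_7 (n = 3) tumours. MYT and M20_7 points do not overlap in any panel, and M20_7 points sit beside the VEH_7 points.

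Junction genes were higher in MYT in all 30 tested members, with a median of 5.96. The count was 29 of 30 without M20_7 replicate 2, M20_7 replicate 4 or MYT replicate 5, and with the 400s titles alone. The member with the smallest difference, named after its values were seen, was the plakophilin gene Pkp2 (0.85 ± 0.33 SE, edgeR adjusted p = 0.0332), whose groups overlapped, at 9.37 to 40.5 CPM (median 24.8) in MYT against 15.2, 7.71, 15.2 and 14.3 CPM. Pkp3, a plakophilin of desmosomes, ranged over 89.9 to 136 CPM (median 117) in MYT and stood at 3.52, 5.24, 3.38 and 4.84 CPM in M20_7 (log2 difference 4.81 ± 0.16 SE, edgeR adjusted p = 1.68e-13). Marveld3, a tight junction protein, ranged over 30.2 to 52.1 CPM (median 42.8) against 0.151, 0.0863, 0.223 and 0.217 CPM (log2 difference 7.92 ± 0.27 SE, edgeR adjusted p = 2.72e-13). Cldn7, a claudin of tight junctions, ranged over 196 to 445 CPM (median 298) against 0.983, 1.04, 0.255 and 0.963 CPM (log2 difference 8.62 ± 0.37 SE, edgeR adjusted p = 3.9e-12). None of these 3 overlapped between the groups.

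The promoters of Epcam and Cldn7 are shown as chosen examples of epithelial genes that were low in the M20_7 tumours. ZEB, SNAI and TWIST family proteins are known to bind E-box letters in promoters of epithelial genes. Capitals mark the E-box CAGGTG and its reverse complement CACCTG in the 250 bases before the RefSeq start (assembly GRCm38.p6, plus strand for both genes). Epcam holds it with its first base at positions -187 and -19 from the start, in chr17:87635729-87635978. Cldn7 holds it at -97 and -57, in chr11:69965171-69965420, and the window before another annotated Cldn7 start, chr11:69964529-69964778, holds none. Of 32851 windows of the same length in the table, 5657 (17.2%) hold the motif on either strand. A match describes these letters only, and binding was not measured. The motif was not counted over the epithelial lists, and a part of such proteins in these differences was not tested.
Epcam: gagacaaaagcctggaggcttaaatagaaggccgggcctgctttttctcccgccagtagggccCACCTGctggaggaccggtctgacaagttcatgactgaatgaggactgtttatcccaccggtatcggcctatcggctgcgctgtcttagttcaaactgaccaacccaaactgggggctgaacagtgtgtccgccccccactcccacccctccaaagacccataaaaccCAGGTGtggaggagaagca
Cldn7: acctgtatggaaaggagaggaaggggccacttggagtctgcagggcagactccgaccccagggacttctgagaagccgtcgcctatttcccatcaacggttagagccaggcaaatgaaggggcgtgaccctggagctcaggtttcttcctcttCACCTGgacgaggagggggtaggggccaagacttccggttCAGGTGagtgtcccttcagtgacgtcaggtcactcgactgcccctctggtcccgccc

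Basal and milk genes were also mostly higher in MYT. Of 22 tested basal and myoepithelial genes 14 were higher (median 2.65). The 2 that were lower, chosen after their values were seen, were Acta2, smooth muscle actin, at -1.47 ± 0.23 (SE), and Egfr, the EGF receptor, at -0.96 ± 0.14 (SE). Another 6 were called in neither direction. Besides Cdh3 and Jag2 these were the contractile genes Myh11 (-0.81 ± 0.43 SE), Mylk (0.25 ± 0.29 SE), Cnn1 (0.69 ± 0.51 SE) and Tagln (-0.36 ± 0.26 SE). No contractile member of the list was thus called higher in MYT. Sox10, a transcription factor of basal-like and progenitor cells, ranged over 485 to 862 CPM (median 659) in MYT against 0.643, 1.55, 0 and 1.96 CPM (log2 difference 9.35 ± 0.57 SE, edgeR adjusted p = 2.15e-10). Lamb3, a chain of the basement membrane laminin, ranged over 61.6 to 208 CPM (median 120.1) against 7.79, 2.73, 4.02 and 5.59 CPM (log2 difference 4.62 ± 0.36 SE, edgeR adjusted p = 5.07e-09), and the keratin Krt17 over 10.7 to 42.3 CPM (median 18.6) against 0.113, 0.144, 0.0957 and 0.124 CPM (log2 difference 7.33 ± 0.44 SE, edgeR adjusted p = 1.84e-10). These 3 genes separated the groups without overlap. Of 14 tested milk and alveolar genes 13 were higher, with a median of 5.86.

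The 8 largest positive differences among well-expressed genes included the casein genes Csn1s1 and Csn2 and several genes of epithelia, and M20_7 counts were at or near 0 for each. Csn1s1 ranged over 459 to 1255 CPM (median 854) in MYT and stood at 0, 0.835, 0.0638 and 0.124 CPM in M20_7 (log2 difference 11.55 ± 0.62 SE, edgeR adjusted p = 4.68e-11), and Csn2 over 119.9 to 1227 CPM (median 369.6) against 0, 0.633, 0 and 0 CPM (log2 difference 11.77 ± 1.08 SE, edgeR adjusted p = 3.99e-08). Their size rests on M20_7 replicate 2, which held most of the few casein counts of that group. Without it the log2 differences were 13.49 and 16.55. For 3 of the 8 genes M20_7 held no count in any library. With 3 counts taken as the floor of the whole M20_7 group, Dsg3, a desmosomal cadherin of 5.06 to 37.4 CPM (median 25.9) in MYT, was at least 973.8-fold higher, Cwh43 at least 2149-fold and Kng1, which encodes the bradykinin precursor kininogen, at least 2514-fold. Cwh43 ranged over 15.8 to 106 CPM (median 48.9) and Kng1 over 13.8 to 144 CPM (median 37.5) in MYT. Alox12e, an epidermal lipoxygenase, had 3 counts in all M20_7 libraries, and its depth-scaled ratio was 4885 (95% counting interval 1671 to 23690). Gpx2, a glutathione peroxidase of epithelia, and Col25a1, a transmembrane collagen, had 2 counts each and ratios of 5657 (1566 to 46710) and 7315 (2025 to 60400). These intervals and the floor cover counting error only. Left-out libraries moved the fitted log2 differences of these last 3 genes, from 11.92 to 14.18 for Alox12e without M20_7 replicate 1, from 12.02 to 13.81 for Gpx2 without M20_7 replicate 3, and from 12.40 to 14.18 for Col25a1 without M20_7 replicate 4, since each was the library that held those counts.

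Mesenchymal genes formed the opposite pole. Of 25 tested genes of epithelial-mesenchymal transition (EMT) and mesenchymal identity, 21 were lower in MYT, with a median of -2.62. The exception, chosen after its values were seen, was the EMT transcription factor Twist1, which was higher in MYT (0.86 ± 0.26 SE). Zeb1 and Zeb2, repressors of epithelial genes, were added after their values were seen. Zeb1 had a lowest value of 7.01, a median of 9.17 and a highest value of 27 CPM in MYT and 257, 225, 266 and 219 CPM in M20_7 (log2 difference -4.31 ± 0.28 SE, edgeR adjusted p = 4.71e-10). Zeb2 ranged over 17.5 to 40.3 CPM (median 23.8) against 196, 115, 165 and 186 CPM (log2 difference -2.66 ± 0.18 SE, edgeR adjusted p = 7.82e-10). The highest Zeb1 values among MYT were those of replicates 8 and 10, at 27 and 21.7 CPM, still far below every M20_7 library. Vim, the mesenchymal filament protein, also added after its values were seen, ranged over 422 to 1260.3 CPM (median 766) against 4084, 4832, 4637 and 4134 CPM (log2 difference -2.41 ± 0.24 SE, edgeR adjusted p = 1.01e-07).

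The EMT members with the smallest p were Prrx1, Tgfbi and Axl. Prrx1, a homeobox factor of mesenchyme, ranged over 7.53 to 23.3 CPM (median 13.95) in MYT against 279.9, 232, 277 and 269 CPM in M20_7 (log2 difference -4.24 ± 0.19 SE, edgeR adjusted p = 7.95e-12). Tgfbi, a matrix protein induced by TGF-beta, ranged over 81.3 to 169.8 CPM (median 116) against 851, 663, 808 and 890.2 CPM (log2 difference -2.70 ± 0.15 SE, edgeR adjusted p = 7.09e-11). Axl, a receptor kinase of mesenchymal cells, ranged over 53.7 to 181 CPM (median 106) against 1099, 1031, 1125 and 1049 CPM (log2 difference -3.23 ± 0.20 SE, edgeR adjusted p = 2.35e-10). For each of these genes all 4 M20_7 libraries lay above every MYT library.

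Matrix genes followed. Of 30 tested collagen and matrix genes 26 were lower in MYT and 2 higher, with a median of -2.28. The 2 exceptions, named after their values were seen, were Col11a1 (2.69 ± 0.40 SE), a fibrillar collagen of cartilage, and Col18a1 (1.09 ± 0.22 SE), a collagen of basement membranes. Fbn1, the main protein of microfibrils, ranged over 23.7 to 64.8 CPM (median 42.7) against 2278, 1414, 1780.1 and 1780.2 CPM (log2 difference -5.29 ± 0.21 SE, edgeR adjusted p = 1.95e-12). Col6a3, a chain of the beaded-filament collagen, ranged over 111 to 258 CPM (median 157) against 2488, 1704, 2288 and 2247 CPM (log2 difference -3.66 ± 0.19 SE, edgeR adjusted p = 2.68e-11), and Loxl2, a collagen crosslinking enzyme, over 24.8 to 65.7 CPM (median 35.98) against 467, 498, 485 and 447 CPM (log2 difference -3.61 ± 0.19 SE, edgeR adjusted p = 3.85e-11). No MYT library reached the M20_7 level of any of these 3 genes. The summed level of the collagen and matrix list was 4889 to 12090.0 CPM in MYT and 31030.0 to 36200.0 CPM in M20_7.

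The 8 largest negative differences among well-expressed genes included secreted signalling antagonists, receptors and proteoglycans. Chrdl1, a BMP antagonist, stood at 94.4, 48.8, 104 and 74.7 CPM in M20_7 and at most at 0.131 CPM in MYT (log2 difference -10.98 ± 0.34 SE, edgeR adjusted p = 1.38e-13). Crabp1, a retinoic acid binding protein, stood at 877, 889.5, 876 and 745 CPM in M20_7 against 0.384 to 6.55 CPM (median 1.03) in MYT (log2 difference -8.46 ± 0.50 SE, edgeR adjusted p = 1.5e-10). Dkk2, a Wnt antagonist, stood at 248, 321, 285 and 326 CPM against 0.584 to 7.73 CPM (median 1.62) (log2 difference -6.83 ± 0.42 SE, edgeR adjusted p = 2.72e-10). Each was abundant in all M20_7 libraries and stood at 7.73 CPM or below in every MYT library. Il1rl1, the receptor of interleukin 33, had a log2 difference of -8.06 ± 0.55 (SE), which was -8.67 without MYT replicate 8. Acan, the cartilage proteoglycan aggrecan, had -8.02 ± 0.64 (-8.84 without MYT replicate 8). Gfra2, a neurturin receptor, had -7.01 ± 0.77 (-8.15 without MYT replicate 8). Ogn, the small proteoglycan osteoglycin, had -7.42 ± 0.71 (-8.65 without MYT replicate 10), and Brinp3 -7.52 ± 0.49. MYT replicates 8 and 10, which lay nearest to M20_7 on the first component, thus held most of the little RNA of Il1rl1, Acan, Gfra2 and Ogn that MYT had. Their values were 4.13 and 3.06 CPM for Il1rl1 against 238, 232, 250.2 and 249 CPM in M20_7. In the BMP and TGF-beta list 21 of 32 tested genes were lower and 7 higher (median -1.04).

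Receptor tyrosine kinases went both ways, with 16 of 36 tested genes higher and 16 lower. Erbb3 and Ddr1 were on the MYT side and Ephb2 on the M20_7 side. Erbb3, a neuregulin receptor, ranged over 92.9 to 189.8 CPM (median 139) in MYT and stood at 2.31, 2.65, 1.34 and 2.52 CPM in M20_7 (log2 difference 6.06 ± 0.28 SE, edgeR adjusted p = 9.53e-12). Ddr1, a collagen receptor of epithelia, ranged over 133 to 211 CPM (median 181) against 23.7, 17.4, 18.6 and 23.2 CPM (log2 difference 3.11 ± 0.15 SE, edgeR adjusted p = 1.66e-11). Ephb2, an ephrin receptor, was lower, with 0.256 to 2.29 CPM (median 0.947) in MYT and 114, 91.6, 92.6 and 102 CPM in M20_7 (log2 difference -6.45 ± 0.27 SE, edgeR adjusted p = 3.08e-12). All 3 separated the groups without overlap.

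Hox genes, which record the body position of a cell lineage, were called higher in MYT only in the Hoxa cluster. Of 39 Hox genes 25 passed the filter on low counts, and 7 of 9 in the Hoxa cluster were higher in MYT (median 3.33), whereas 4 of 8 in Hoxb, 2 of 6 in Hoxc and 2 of 2 in Hoxd were lower (medians -0.93, -0.39 and -2.12). Over all tested genes 33.9% were higher and 31.1% lower. The Hoxc count thus lay near the background, and Hoxd held only 2 tested genes. The split by cluster was made after the values were seen. Hoxa3 ranged over 31.6 to 55.3 CPM (median 42.3) in MYT against 1.25, 1.84, 1.34 and 1.96 CPM in M20_7 (log2 difference 4.75 ± 0.22 SE, edgeR adjusted p = 7.25e-12), Hoxa2 over 11.9 to 24.99 CPM (median 16.1) against 0.113, 0.403, 0.415 and 0.528 CPM (log2 difference 5.52 ± 0.33 SE, edgeR adjusted p = 2.15e-10), and Hoxa5 over 14.4 to 42.4 CPM (median 27.2) against 0.908, 1.295, 1.02 and 0.931 CPM (log2 difference 4.75 ± 0.33 SE, edgeR adjusted p = 1e-09). The vehicle sets differed at Hoxa in the same direction, with 6 of 7 tested Hoxa genes higher in VEH (median 2.65) and Hoxa3 at 4.06 ± 0.27 (SE; edgeR adjusted p = 3.38e-05). In the other clusters the medians under vehicle were positive, at 0.70 for Hoxb (1 of 8 higher), 1.52 for Hoxc (2 of 5 higher) and 0.50 for Hoxd (0 of 2 called), with no member lower in VEH. Among the vehicle tumours the lists' background was 31% of 15555 tested genes called, 15.4% higher and 15.6% lower in VEH.

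Transcript levels of the drug's target were higher in MYT. Pkmyt1 (ENSMUSG00000023908, chromosome 17, 23726336 to 23736735 on GRCm38) had a lowest value of 59.3, a median of 78.6 and a highest value of 94.7 CPM in MYT and stood at 21.3, 25.7, 32.3 and 29.2 CPM in M20_7. The groups did not overlap, and the log2 difference was 1.58 ± 0.13 (SE; edgeR adjusted p = 9.16e-09). Cdk1 ranged over 107 to 308 CPM (median 174) against 56.1, 96.1, 88.5 and 73.5 CPM (log2 difference 1.32 ± 0.25 SE, edgeR adjusted p = 0.000198), and Ccnb1, its cyclin, over 79.4 to 203 CPM (median 115) against 44.97, 69.1, 72.4 and 55.05 CPM (log2 difference 1.14 ± 0.23 SE, edgeR adjusted p = 0.000309). Cdc25c, the phosphatase that activates CDK1, ranged over 22.1 to 47.9 CPM (median 35.6) against 9.002, 14.7, 15.4 and 10.8 CPM (log2 difference 1.61 ± 0.19 SE, edgeR adjusted p = 1.12e-06). These genes were higher in every MYT library than in any M20_7 library. Wee1, which encodes the relative of PKMYT1, ranged over 27.5 to 44.9 CPM (median 37.9) against 21.03, 26.7, 31.9 and 32.4 CPM, and these ranges overlapped (log2 difference 0.44 ± 0.14 SE, edgeR adjusted p = 0.0118). Its call was lost without M20_7 replicate 1 (log2 difference 0.32, edgeR adjusted p = 0.0671).

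The list of CDK1 and its regulators held 21 tested genes, of which 9 were higher and 5 lower (median 0.38). The lower ones, named after their values were seen, were Ccnb2 (-0.47 ± 0.19), another cyclin B, Cdc25a (-0.26 ± 0.11), a phosphatase of CDK2 and CDK1, Bora (-0.60 ± 0.13), a cofactor of Aurora A, Arpp19 (-0.52 ± 0.11), an inhibitor of the phosphatase PP2A, and Foxm1 (-0.67 ± 0.13), a transcription factor of G2/M genes (log2 differences with SE). Chek2, a DNA damage checkpoint kinase, ranged over 12.98 to 24.7 CPM (median 19.8) in MYT against 9.002, 11.3, 10.7 and 11.4 CPM (log2 difference 0.92 ± 0.16 SE, edgeR adjusted p = 7.81e-05). The list as a whole lay near the background shares in both directions.

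**Figure D2:**
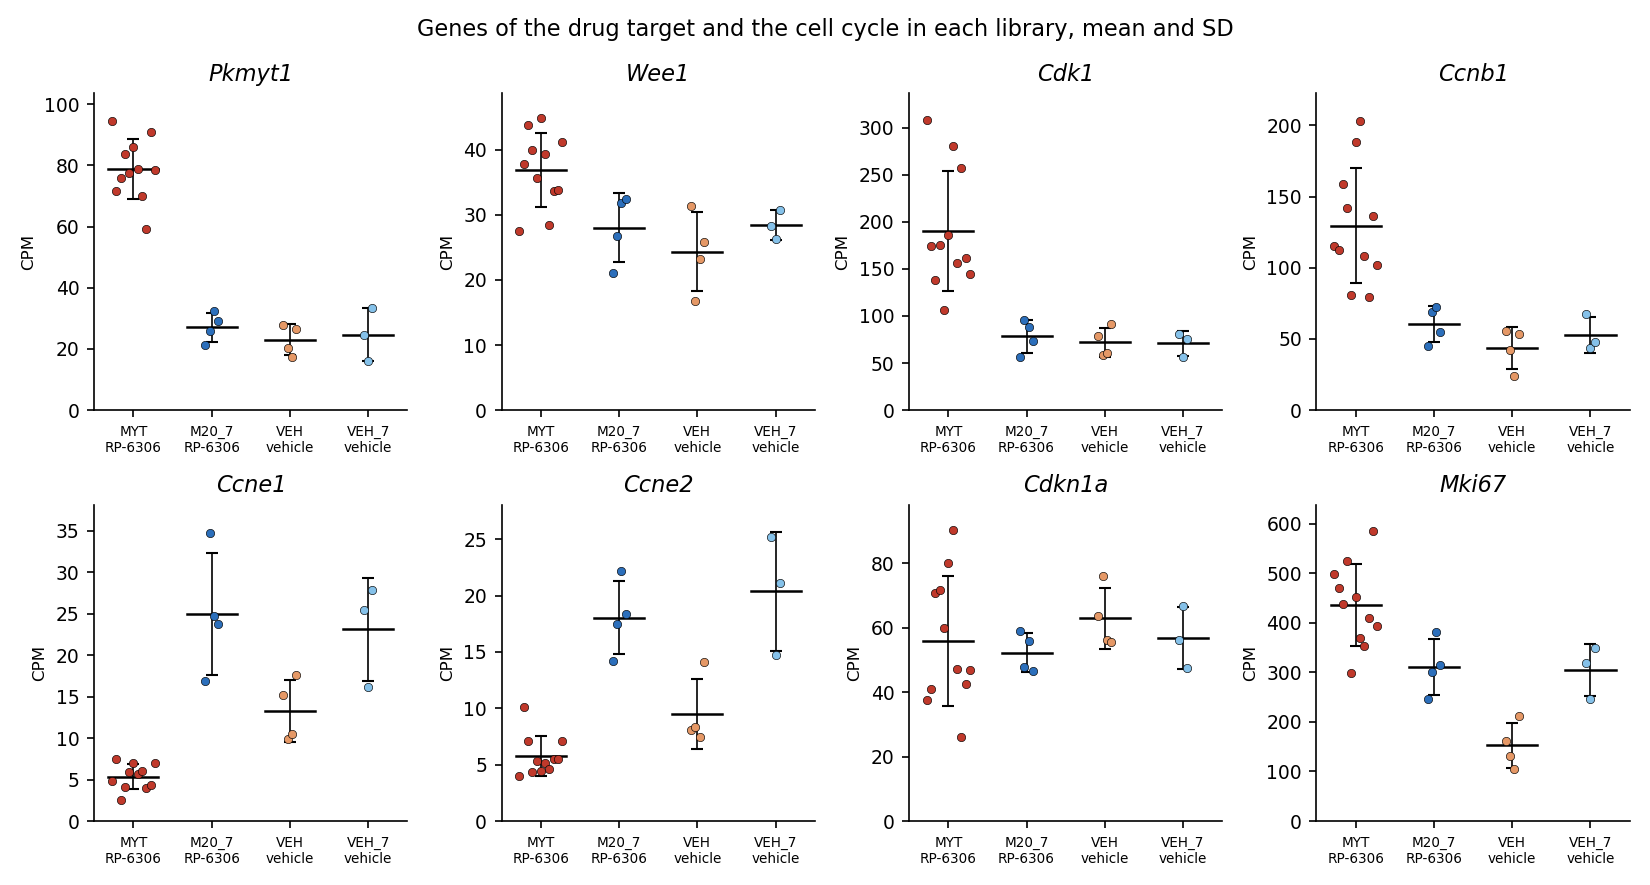
CPM on the vertical axis of 8 genes of the drug target and the cell cycle, 1 point per library, with the group mean as a line and the SD as a bar, in MYT (n = 11), M20_7 (n = 4), VEH (n = 4) and VEH_7 (n = 3) tumours. Pkmyt1 lies at 59.3 CPM or above in MYT and at 33.4 CPM or below in the other groups, and Ccne1 lies at 7.52 CPM or below in MYT and at 9.90 CPM or above elsewhere.

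Both cyclin E genes were lower in MYT. Ccne1 ranged over 2.53 to 7.52 CPM (median 5.69) in MYT and stood at 16.8, 34.7, 24.7 and 23.7 CPM in M20_7 (log2 difference -2.18 ± 0.22 SE, edgeR adjusted p = 1.18e-07). Ccne2 ranged over 4.01 to 10.1 CPM (median 5.29) against 14.2, 17.5, 22.2 and 18.3 CPM (log2 difference -1.61 ± 0.20 SE, edgeR adjusted p = 1.91e-06). Neither overlapped. The labels do not state whether reads of a cyclin E transgene were counted under Ccne1. Fbxw7, the ubiquitin ligase subunit that marks cyclin E for degradation, was higher, over 63.2 to 89.7 CPM (median 73.7) against 39.5, 27.3, 29.9 and 31.9 CPM (log2 difference 1.27 ± 0.13 SE, edgeR adjusted p = 1.05e-07). In the list of cyclin E, CDK2 and inhibitors 6 of 14 tested genes were higher and 5 lower (median -0.02). Besides Ccne1 and Ccne2 the lower genes, named after their values were seen, were Cdc25a, the histone gene activator Npat and the pocket protein gene Rbl2. Cdkn1a, the p53-induced CDK inhibitor p21, ranged over 25.9 to 90.3 CPM (median 47.2) against 58.9, 47.8, 55.8 and 46.6 CPM. These values overlapped, and the log2 difference was 0.13 ± 0.24 (SE; edgeR adjusted p = 0.656).

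Among D cyclins, CDK4/6 and INK4 inhibitors, 5 of 9 tested genes were lower in MYT and 1 higher (median -0.88). Cdk6 ranged over 61.7 to 118 CPM (median 92.8) against 265, 199, 276 and 269 CPM (log2 difference -1.46 ± 0.14 SE, edgeR adjusted p = 7e-08), and Ccnd2, cyclin D2, over 8.62 to 21.9 CPM (median 13.3) against 51.1, 57.3, 44.2 and 54.1 CPM (log2 difference -1.85 ± 0.18 SE, edgeR adjusted p = 9.15e-08). Cdk4, the other kinase partner of D cyclins, was higher, over 257 to 449 CPM (median 351) against 194, 227, 193 and 201 CPM (log2 difference 0.81 ± 0.13 SE, edgeR adjusted p = 2.5e-05). The other lower genes, named after their values were seen, were the INK4 inhibitors Cdkn2a (-1.28 ± 0.26 SE), Cdkn2b (-1.08 ± 0.31 SE) and Cdkn2d (-0.88 ± 0.21 SE). Cdk6 and Cdk4 thus moved in opposite directions.

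Replication and mitosis genes leaned towards MYT. Of 40 tested G1/S and DNA replication genes 18 were higher and 4 lower (median 0.33), and of 34 tested G2/M and mitosis genes 21 were higher and 3 lower (median 0.54). Rfc4, a subunit of the clamp loader, ranged over 34.1 to 57.8 CPM (median 44.2) against 12.4, 22.3, 19.7 and 15.3 CPM (log2 difference 1.39 ± 0.17 SE, edgeR adjusted p = 1.2e-06). Gmnn, geminin, which blocks relicensing of origins, ranged over 36.6 to 74.8 CPM (median 58.2) against 14.4, 23.7, 25.3 and 22.8 CPM (log2 difference 1.48 ± 0.19 SE, edgeR adjusted p = 1.89e-06), and Cdc45, part of the replicative helicase, over 45.1 to 70.9 CPM (median 54.00) against 21.1, 33.9, 32.6 and 27.4 CPM (log2 difference 0.98 ± 0.13 SE, edgeR adjusted p = 3.95e-06). The replication members that were lower, named after their values were seen, were Orc6 and Gins3, which act at origins, the polymerase gene Pola1, and E2f2. Among mitosis genes, Spc24, a kinetochore protein, ranged over 15.9 to 29.02 CPM (median 23.1) against 6.24, 10.9, 9.86 and 9.004 CPM (log2 difference 1.38 ± 0.17 SE, edgeR adjusted p = 1.72e-06). Mad2l1, a spindle checkpoint protein, ranged over 68.6 to 135 CPM (median 97.5) against 34.7, 50.2, 50.5 and 43.8 CPM (log2 difference 1.16 ± 0.15 SE, edgeR adjusted p = 2.45e-06), and Incenp, of the chromosomal passenger complex, over 100.4 to 179 CPM (median 131) against 66.9, 75.8, 90.6 and 84.6 CPM (log2 difference 0.78 ± 0.13 SE, edgeR adjusted p = 4.17e-05). The lower members, named in the same way, were Ttk, Kif23 and Anln, of which Kif23 and Anln act in cytokinesis. The proliferation marker Mki67 ranged over 299 to 584 CPM (median 438) against 246, 300.4, 382 and 315 CPM, with overlap (log2 difference 0.53 ± 0.16 SE, edgeR adjusted p = 0.00716).

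In the vehicle tumours the same cell cycle lists pointed the other way. The median set difference under vehicle was -0.52 for the replication list and -0.56 for the mitosis list, with 16 of 40 and 12 of 34 members lower in VEH than in VEH_7. Mki67 had -0.998 ± 0.23 (SE; edgeR adjusted p = 0.0104). Whether the set difference under RP-6306 differed from that under vehicle was tested gene by gene. This test called 6151 of 17095 genes (36%), with 2914 (17%) more positive and 3237 (18.9%) more negative under RP-6306. It called 29 of 40 replication genes and 25 of 34 mitosis genes, each of them as more positive under RP-6306. For Pkmyt1 the difference of the set differences was 1.65 ± 0.26 (SE; edgeR adjusted p = 5.31e-05), and the vehicle groups stood within 16.1 to 33.4 CPM. This test includes the MYT and M20_7 libraries themselves and is not independent of the comparison above. It also rests on the pairing by title. An effect of the drug and a line difference between MYT and VEH tumours cannot be told apart in it.

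Interferon-stimulated genes were lower in MYT in 19 of 40 tested members and higher in 2, with a median of -0.46. The 2 exceptions, named after their values were seen, were the guanylate binding proteins Gbp2 (1.18 ± 0.18 SE) and Gbp3 (0.67 ± 0.16 SE). Trim30a, an interferon-induced TRIM protein, ranged over 8.62 to 18.9 CPM (median 14.2) against 64.6, 82.9, 88.4 and 71.01 CPM (log2 difference -2.44 ± 0.15 SE, edgeR adjusted p = 2.18e-10). Ifit2 and Ifit3 encode RNA-binding antiviral proteins. Ifit2 ranged over 13.7 to 32.03 CPM (median 21.4) against 78.9, 85.7, 85.9 and 64.7 CPM (log2 difference -1.75 ± 0.19 SE, edgeR adjusted p = 3.77e-07), and Ifit3 over 13.5 to 40.1 CPM (median 21.7) against 50.98, 103, 86.9 and 44.4 CPM (log2 difference -1.63 ± 0.23 SE, edgeR adjusted p = 9.84e-06). MYT lay below M20_7 for all 3 genes. Under vehicle the list was lower in 37 of 40 members (median -1.51), a wider gap than under RP-6306 by the medians. The test of the difference called 17 of 40 members as more positive and 1, Trim30a, as more negative under RP-6306. Genes of antigen presentation by MHC class II were lower in MYT in 8 of 10 members (median -0.96), and those of MHC class I in 11 of 20, with 1 higher, the peptide transporter gene Tap2, named after its values were seen (median -0.57). Without M20_7 replicate 2 the MHC class I count was 7 of 20.

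Lymphocyte genes were scarce in MYT. All 10 tested NK and cytotoxic genes were lower (median -3.62), and their summed level was 4.61 to 17.9 CPM in MYT against 46.5 to 90.2 CPM in M20_7. Of 21 tested T cell genes 18 were lower and 1 higher (median -2.61). Zap70, a kinase of the T cell receptor, ranged over 0.06302 to 0.677 CPM (median 0.262) against 2.005, 5.84, 2.36 and 1.55 CPM (log2 difference -3.31 ± 0.42 SE, edgeR adjusted p = 2.44e-06), and Cd28, a costimulatory receptor, over 0 to 0.524 CPM (median 0.111) against 1.399, 2.04, 1.44 and 1.52 CPM (log2 difference -3.19 ± 0.46 SE, edgeR adjusted p = 9.94e-06). These levels were low in both groups. The higher member was Tcf7, a transcription factor that other cell types also express, over 52.3 to 124 CPM (median 84.9) against 42.5, 36.1, 23.9 and 28.01 CPM (log2 difference 1.49 ± 0.20 SE, edgeR adjusted p = 4.86e-06). Because Tcf7 held most of the list's counts in MYT, the summed T cell level overlapped between the groups, at 63.7 to 137 against 79.1 to 164 CPM. All 5 tested B and plasma cell genes, the receptor chain gene Cd79b, Fcrla, the joining chain gene Jchain and the immunoglobulin genes Ighm and Igkc, were lower (median -4.88). M20_7 replicate 2 held more lymphocyte RNA than the rest of its group, with a summed B and plasma cell level of 369.8 CPM against at most 52.5 CPM in the other three, and a T cell level of 164 CPM against at most 85.1 CPM. Without it 3 of 5 B and plasma cell genes (median -2.46) and 18 of 21 T cell genes (median -2.15) were lower.

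Macrophage genes were lower in MYT in 17 of 24 members and higher in 3 (median -1.23). Fcgr1, a high-affinity antibody receptor, ranged over 11.4 to 21.6 CPM (median 14.3) against 117, 126, 124 and 117 CPM (log2 difference -2.88 ± 0.15 SE, edgeR adjusted p = 4.86e-11). Cx3cr1, the fractalkine receptor, ranged over 24.6 to 71.03 CPM (median 40.7) against 486, 339, 365 and 488 CPM (log2 difference -3.19 ± 0.19 SE, edgeR adjusted p = 2.18e-10), and Csf1r, the receptor that macrophages need to survive, over 61.5 to 142 CPM (median 98.2) against 554, 382, 449 and 568 CPM (log2 difference -2.19 ± 0.17 SE, edgeR adjusted p = 4.96e-09). The higher members, named after their values were seen, were Cd14, Spp1 and Arg1, of which the arginase gene Arg1 had the largest log2 difference (3.81 ± 0.30 SE). No macrophage gene named by p overlapped between the groups.

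Neutrophil genes went the other way, with 8 of 11 tested higher in MYT and 2 lower (median 4.62). The median was 4.70 (8 of 11 higher) with the 400s titles alone and 2.95 (6 of 10 higher) with the 2600s and 2700s. S100a8 and S100a9, the subunits of calprotectin, were far above M20_7. S100a8 ranged over 26.01 to 66.7 CPM (median 45.9) against 0.719, 0.144, 0.542 and 0.342 CPM (log2 difference 6.81 ± 0.36 SE, edgeR adjusted p = 4.6e-11), S100a9 over 21.5 to 56.5 CPM (median 43.5) against 1.06, 0.604, 0.191 and 0.373 CPM (log2 difference 6.30 ± 0.38 SE, edgeR adjusted p = 2.29e-10), and Cxcr2, a chemokine receptor of neutrophils, over 11.4 to 27.7 CPM (median 17.6) against 0.908, 1.18, 0.574 and 0.3105 CPM (log2 difference 4.62 ± 0.36 SE, edgeR adjusted p = 5.77e-09). The 2 lower members, named after their values were seen, were Mmp9, a gelatinase that other cells also make, and Mpo, myeloperoxidase. Which cells made the RNA of the higher members, S100a8 and S100a9 included, cannot be told in bulk samples. Whether the groups differed in neutrophil number was not tested. Because of Mmp9, the summed level of the list overlapped between the groups, at 129 to 275 against 158 to 251 CPM. The defining marker Ly6g had no count in any M20_7 library and reached at most 0.832 CPM in MYT.

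Endothelial genes were lower in MYT in 17 of 20 members (median -1.23), and their summed level was 263 to 544 CPM against 632 to 907 CPM, without overlap. Kdr, the main VEGF receptor, ranged over 9.34 to 20.99 CPM (median 16.04) against 47.2, 53.9, 40.4 and 54.96 CPM (log2 difference -1.61 ± 0.18 SE, edgeR adjusted p = 3.99e-07). Eng, endoglin, ranged over 31.8 to 56.7 CPM (median 36.4) against 105, 94.95, 96.2 and 105 CPM (log2 difference -1.25 ± 0.14 SE, edgeR adjusted p = 4.2e-07), and Ptprb, a phosphatase of vessels, over 3.199 to 10.6 CPM (median 4.58) against 25.04, 19.4, 23.7 and 22.1 CPM (log2 difference -1.99 ± 0.24 SE, edgeR adjusted p = 1.49e-06). Under vehicle this list had a median of 0.22, and the test of the difference called 18 of 20 members as more negative under RP-6306. Of 12 pericyte and smooth muscle genes 3 were higher (Notch3, Kcnj8 and Higd1b) and 3 lower (Cspg4, Acta2 and Pdgfrb), and these were named after their values were seen. Of 8 tested adipocyte genes 4 were lower (Plin4, Pparg, Lpl and Cfd) and 2 higher (Cidea and Pnpla2), named in the same way (median -1.37). The other 6 list members did not pass the filter on low counts, and without that filter 11 of 14 were lower and 2 higher (median -4.90). In 1 fit over 32 libraries 8 of 12 were lower (median -3.13), and the defining adipocyte gene Adipoq stood at 0.3404, 3.51, 0 and 8.45 CPM in M20_7 and at most at 0.167 CPM in MYT. Among the M20_7 libraries, replicate 3 held skeletal muscle RNA, with Acta1, skeletal actin, at 83.05 CPM against at most 0.838 CPM in the other three. The part of these admixed cells in the differences was not tested.

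**Figure D3:**
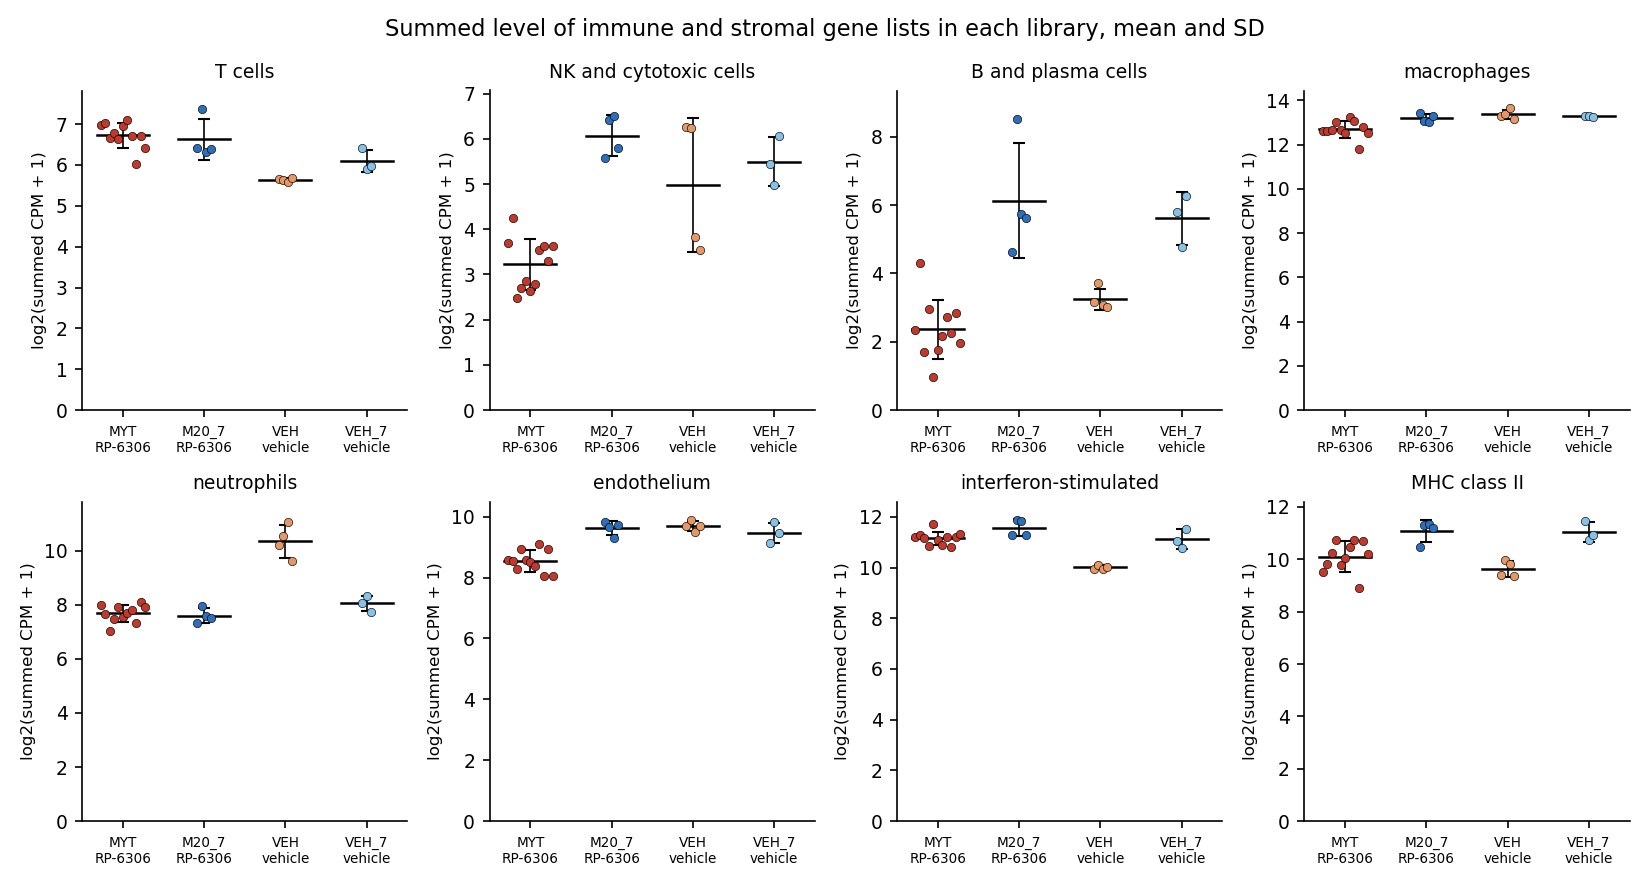
Summed CPM of 8 immune and stromal gene lists, as log2(summed CPM + 1) on the vertical axis, 1 point per library, with the group mean as a line and the SD as a bar, in MYT (n = 11), M20_7 (n = 4), VEH (n = 4) and VEH_7 (n = 3) tumours. NK and endothelial sums lie lower in every MYT than in every M20_7 library, and the highest B and plasma cell point is M20_7 replicate 2 at 369.8 CPM.

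Energy metabolism and translation genes were moderately higher in MYT. Of 35 tested nuclear genes of oxidative phosphorylation 26 were higher and 4 lower (median 0.55), and of 13 mitochondrially encoded genes 9 were higher (median 0.87). For the mitochondrially encoded genes 11 of 13 were higher with the 400s titles alone (median 1.11), 6 of 13 with the 2600s and 2700s (median 0.45), and 2 of 13 in 1 fit over 32 libraries. The lower nuclear genes, named after their values were seen, were the succinate dehydrogenase subunits Sdhb and Sdhd, Uqcrc1 and Cox5a. Of 40 ribosomal protein genes 22 were higher and 2 lower, Rpl4 and Rpsa (median 0.53). Hypoxia response genes were higher in 14 of 24 and lower in 4 (median 0.61), and the lower 4, named in the same way, were Car9, Pdk1, Pfkfb4 and P4ha2. These shifts are small beside those of the epithelial and mesenchymal lists. The mitochondrial share of all counts, given above, differed between the groups in the same direction as the mitochondrially encoded genes.

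Genes with similar levels in both sets are named for contrast. Among strongly expressed genes, the 4 with the smallest absolute log2 difference were Tns3 (-0.01 ± 0.12), an adhesion protein, Gnas (0.01 ± 0.10), a G protein subunit, Jund (0.02 ± 0.11), an AP-1 factor, and Pdia3 (-0.02 ± 0.10), a chaperone of the endoplasmic reticulum (log2 differences with SE). For each of them the values of both groups overlapped. Gnas, for example, ranged over 446 to 705 CPM (median 600.5) in MYT against 570.0, 652, 583 and 569 CPM in M20_7.

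Part of the set difference was also seen between the vehicle groups, which were paired with the treated groups by title only. Over 15235 genes tested in both comparisons, 9915 differed under RP-6306 and 4685 under vehicle. The number that differed in both and in the same direction was 3029, which is 30.6% of the RP-6306 calls and 64.7% of the vehicle calls. A further 529, or 5.33% and 11.3%, differed in opposite directions. Calls were common in both comparisons, at 65% and 31% of the genes tested in each. Some shared calls would therefore arise without any relation between the comparisons, and their expected number was not computed. The correlation of the log2 differences across genes was 0.58, as a description over genes, and the comparisons share no library. The luminal list had a median of 3.003 under vehicle against 7.08 under RP-6306, and the EMT list -0.46 against -2.62. The collagen and matrix list had 0.002 under vehicle, and the test of the difference called 25 of 30 of its members as more negative under RP-6306. Of 31 luminal genes in that test 22 were more positive and 1 more negative (the progesterone receptor gene Pgr, named after its values were seen), and of 25 EMT genes 23 were more negative. Vim had 0.14 ± 0.15 (SE; edgeR adjusted p = 0.489) under vehicle, and Zeb1 had -1.36 ± 0.17 (SE; edgeR adjusted p = 0.000645). Ccnd2 changed sign, with 2.22 ± 0.18 (SE; edgeR adjusted p = 9.13e-05) under vehicle. VEH replicate 1 stood apart for epithelial genes, with Epcam at 239 CPM against at most 26.3 CPM in the other VEH libraries. The set difference of Epcam under vehicle was 3.84 ± 1.31 (SE; edgeR adjusted p = 0.0519).

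**Figure D4:**
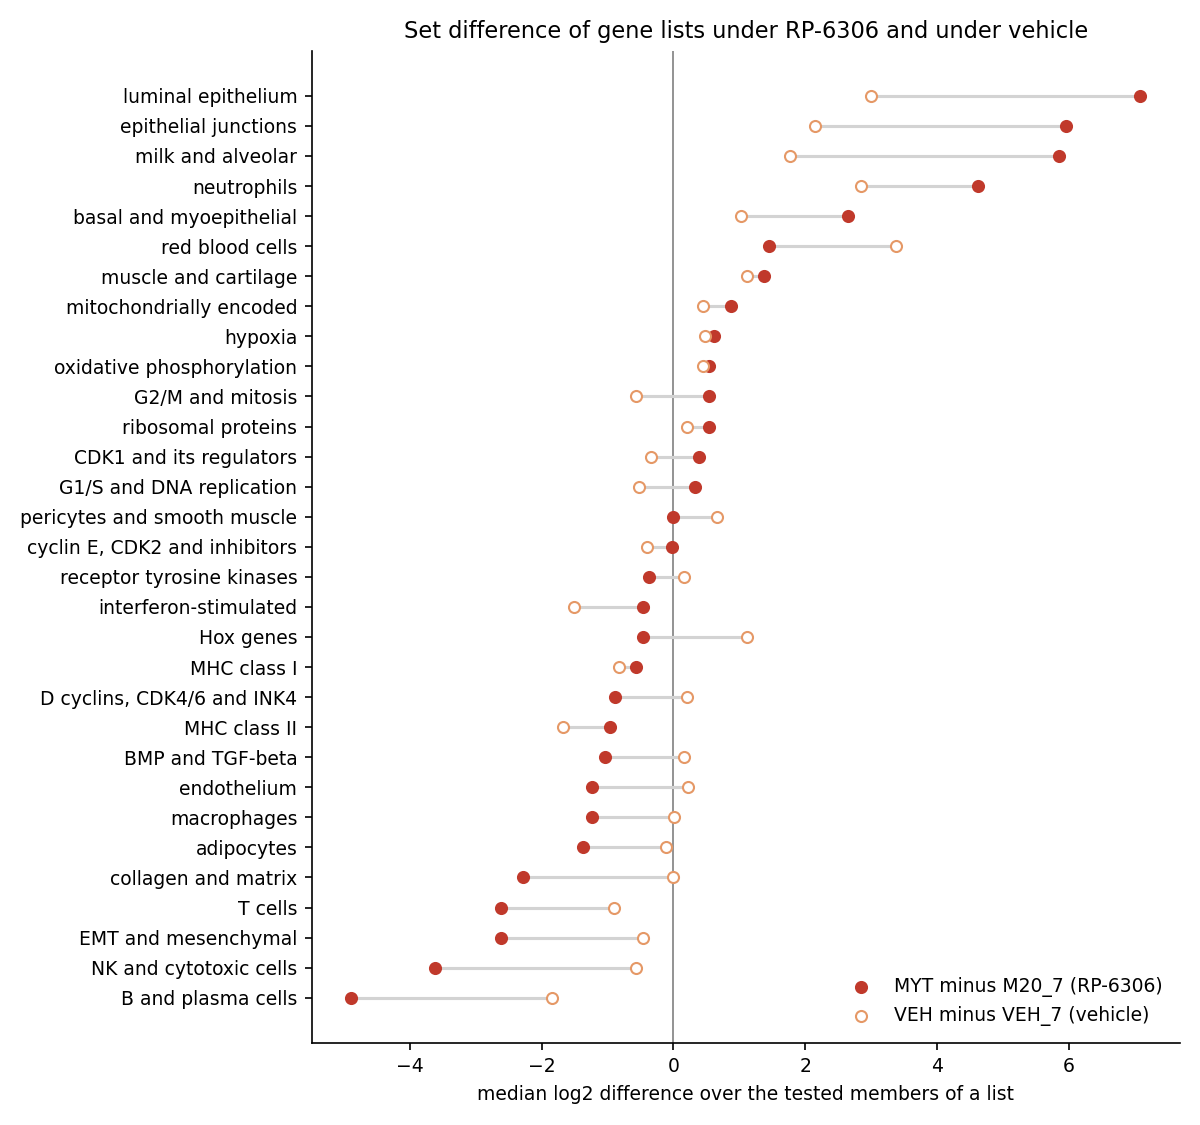
Median log2 difference over the tested members of 31 gene lists on the horizontal axis, for MYT minus M20_7 under RP-6306 (filled points) and VEH minus VEH_7 under vehicle (open points). The luminal list lies at 7.08 and 3.003 and the EMT list at -2.62 and -0.46, and the replication and mitosis lists lie on opposite sides of 0.

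Expression also differed by chromosome. For each library, the median over the tested genes of a chromosome was taken of log2(CPM + 1) minus the gene's mean of both groups, after centring each library on its median over all tested genes. Of 20 chromosomes 14 differed between the groups at an adjusted p under 0.05 in an exact permutation test over libraries, two-sided, for which 0.000733 is the smallest p that 1365 groupings allow. Chromosome 9 differed most. Its median over 899 genes lay between -0.35 and -0.25 in the 11 MYT libraries and between 0.29 and 0.34 in the 4 M20_7 libraries, a difference of -0.63 (exact permutation p = 0.000733, adjusted p = 0.00146). On this chromosome 61.8% of genes were lower in MYT and 13.4% higher, against 31.1% and 33.9% over all chromosomes. The difference ran along its whole length. In each of 7 stretches of 20 Mb the median log2 difference was negative, between -0.95 and -0.58, with 71.4% to 83.1% of genes below 0. Chromosome 16 lay on the other side (0.39, with 54.8% of 500 genes higher), followed by chromosomes 14 (-0.35) and 8 (-0.32). Under vehicle the median log2 set difference of the genes on chromosome 9 was -0.18. Crabp1 and Cx3cr1, named above as lower in MYT, lie on chromosome 9, and gene copy number was not measured.

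**Figure D5:**
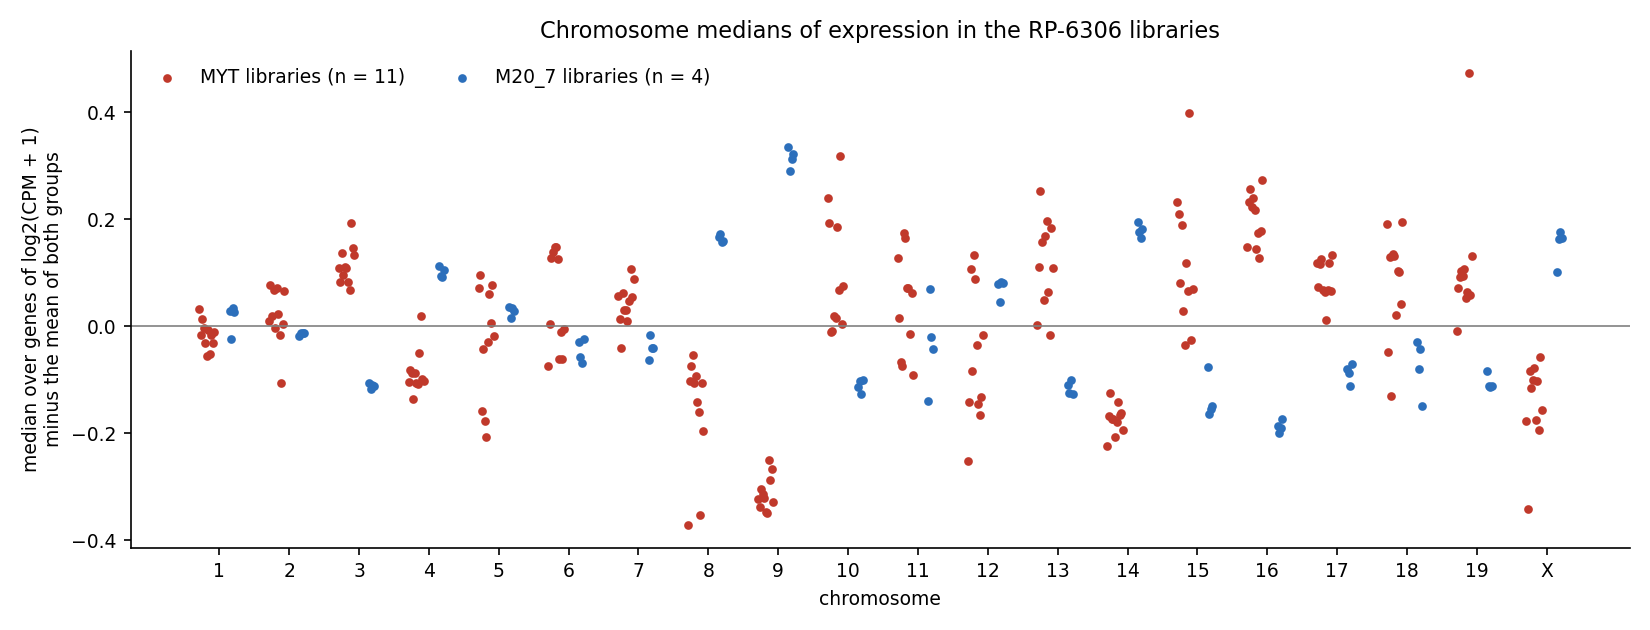
Median over the tested genes of each chromosome of log2(CPM + 1) minus the mean of both groups (vertical axis), 1 point per library, for MYT (n = 11) and M20_7 (n = 4). The 11 MYT points of chromosome 9 lie between -0.35 and -0.25 and the 4 M20_7 points between 0.29 and 0.34.

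The luminal and EMT list medians kept their sign with both numbered series of MYT titles, each set against M20_7. With the 400s the medians were 6.77 for the luminal and -2.46 for the EMT list, and with the 2600s and 2700s 7.25 and -2.69. Calls numbered 10010 and 10079. For Cdkn1a only the second series gave a call (log2 difference 0.55, edgeR adjusted p = 0.00276), and for Wee1 the first gave none (0.25, edgeR adjusted p = 0.181). The red blood cell list had 3 of 4 members higher in the full comparison (the globin genes Hba-a1, Hbb-bs and Hbb-bt, named after their values were seen), 3 with the 400s and 0 with the 2600s and 2700s. Hba-a1 (1.52) and Hbb-bs (1.38) lost their calls without M20_7 replicate 1, 2 or 3, with log2 differences of 1.35, 1.41 and 1.38 for Hba-a1 and 1.21, 1.32 and 1.28 for Hbb-bs. The luminal and EMT medians were thus of like size with both series, whereas Cdkn1a, Wee1, globin, neutrophil and mitochondrially encoded genes gave other calls or medians. The T cell median was -3.37 with the 2600s and 2700s and -2.27 with the 400s, and that of collagen and matrix genes -2.58 and -1.97. Differences between the title series were not tested. Counts thinned to the smallest library gave 10269 calls.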

How the data were processed

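RNA from transplanted mouse mammary tumours was sequenced, and the deposited matrix holds raw read counts per gene, on which the authors used STAR 2.7.10a, HTSeq and edgeR with build GRCm38, per the submitters' processing notes. No label gives the strandedness of the libraries, so overlapping antisense genes cannot be told apart. Rows with an Ensembl identifier and no symbol (791, with 0.0482% of counts) stayed in the tests. Genes were filtered with filterByExpr, scaled by TMM and tested with edgeR 4.0.16 (quasi-likelihood, R 4.3.3) on MYT and M20_7 libraries only, with Benjamini-Hochberg adjustment over all genes tested. The same was done for VEH against VEH_7, and for the difference of both contrasts over the 4 groups. Scripts were tested on simulated data. CPM values use TMM factors over all 33 libraries. Alternatives were DESeq2 1.42.0, limma 3.58.1 (voom), other scalings and filters, thinned counts, title series and each library left out. Chi-square tests over genes told all 70 pairs of libraries within a group apart, with a ratio to the degrees of freedom of at least 16.1. Gene positions are from GENCODE and promoter letters from RefSeq (GRCm38.p6).

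Genes named were Pkmyt1 with Wee1, Cdk1 with Ccnb1, Ccne1, Ccne2, Cdkn1a and the marker Mki67. Others were the 8 largest and 8 smallest log2 differences among called genes whose average log2 CPM was 4 or more. Named too were the 3 members with the smallest p in many of the lists described, and the 4 genes nearest to 0 whose average log2 CPM was 8 or more. In other lists, such as hypoxia, oxidative phosphorylation, and BMP and TGF-beta, those 3 members were not all named. The members and lists were chosen with earlier results of these data known. One tumour whose labels disagree on its treatment was left out of all comparisons.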

Additional observations from a re-analysis of the deposited data

Results flagged for a closer look

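In groups of 4 libraries (M20_7 and VEH), a library was singled out where its gap to the nearest of the others took up more of the group's range than Dixon's 95% critical value for 4 values allows. Of 191 such sets of 4 values examined 30 met this. No chance rate can be set beside this number, because many of the genes vary together. Sets with counts in only 1 library meet the rule automatically, and sets with no count cannot meet it. VEH replicate 1 stood above its group for many epithelial genes: Epcam 239 CPM (nearest other library 26.3), Cldn7 43.9 CPM (nearest other library 6.93), Ehf 43.7 CPM (nearest other library 6.21), Esrp2 20.4 CPM (nearest other library 2.601), Erbb3 46.3 CPM (nearest other library 7.37), Prom1 31.6 CPM (nearest other library 4.55) and Marveld3 9.15 CPM (nearest other library 0.506). It stood above its group also for Csn1s1 277 CPM (nearest other library 29.04), Csn2 80.3 CPM (nearest other library 9.03), Col25a1 26.6 CPM (nearest other library 2.46), Gpx2 10.7 CPM (nearest other library 1.37), Dsg3 3.66 CPM (nearest other library 0.361), Cwh43 1.83 CPM (nearest other library 0.286) and Alox12e 2.94 CPM (nearest other library 0.484), and below it for Zeb2 112 CPM (nearest other library 144). Krt8 did not set this library apart. Of the other VEH libraries, replicate 2 stood high for Brinp3 51.9 CPM (nearest other library 13.1), replicate 4 for Ccne2 14.2 CPM (nearest other library 8.31), and replicate 3 low for S100a9 2.49 CPM (nearest other library 13.4).

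Among M20_7 libraries, replicate 2 stood high for T cell genes summed 164 CPM (nearest other library 85.1), B and plasma cell genes summed 369.8 CPM (nearest other library 52.5), Csn1s1 0.835 CPM (nearest other library 0.124), Csn2 0.633 CPM (nearest other library 0) and Gnas 652 CPM (nearest other library 583) and low for Cdk6 199 CPM (nearest other library 266). Replicate 4 stood high for red blood cell genes summed 90.3 CPM (nearest other library 41.3) and Col25a1 0.0621 CPM (nearest other library 0) and low for Crabp1 745 CPM (nearest other library 876). Replicate 3 stood low for Cldn7 0.255 CPM (nearest other library 0.963) and held the only counts of Gpx2 (0.0638 CPM), and replicate 1 the only counts of Alox12e (0.114 CPM). Values for caseins, Gpx2, Alox12e and Col25a1 in M20_7 are of a few counts.

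The set difference under RP-6306 (MYT minus M20_7) differed from that under vehicle (VEH minus VEH_7) for 58 of 80 named genes that were examined. The adjusted p of edgeR's test of the contrast itself lay between 7.23e-09 and 0.0471. Over all tested genes 36% were called. Many of the 80 were picked by p or size in the MYT and M20_7 libraries, which enter this test, so these shares are not comparable. The values below are log2 differences of the set differences with SE, positive where the set difference was more positive under RP-6306. Epithelial and milk genes were more positive: Epcam 4.66 ± 1.048, Cldn7 4.30 ± 1.10, Ehf 6.42 ± 1.27, Esrp2 3.58 ± 0.90, Pkp3 3.21 ± 0.31, Marveld3 4.81 ± 1.35, Prom1 4.16 ± 1.26, Sox10 3.70 ± 0.996, Csn1s1 5.34 ± 1.53, Csn2 5.86 ± 1.93 and Alox12e 9.44 ± 2.04. Receptor kinases went both ways, with Erbb3 3.98 ± 0.85, Ddr1 0.80 ± 0.21, Axl -2.03 ± 0.34 and Ephb2 -5.86 ± 0.42. Mesenchymal and matrix genes were more negative: Zeb1 -2.96 ± 0.46, Zeb2 -2.21 ± 0.30, Vim -2.58 ± 0.40, Prrx1 -3.13 ± 0.33, Tgfbi -2.04 ± 0.25, Fbn1 -2.88 ± 0.42, Col6a3 -2.84 ± 0.36 and Loxl2 -2.65 ± 0.35. So were the signalling and proteoglycan genes with the largest negative set difference: Acan -9.24 ± 1.07, Brinp3 -4.78 ± 0.90, Chrdl1 -7.13 ± 1.18, Crabp1 -4.37 ± 0.78, Dkk2 -3.58 ± 0.68, Gfra2 -4.90 ± 1.12, Il1rl1 -6.91 ± 0.95 and Ogn -5.73 ± 1.27.

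Cell cycle genes were more positive under RP-6306 for Pkmyt1 1.65 ± 0.26, Wee1 0.63 ± 0.24, Cdk1 1.26 ± 0.37, Ccnb1 1.39 ± 0.39, Cdc25c 2.07 ± 0.30, Chek2 0.67 ± 0.24, Cdk4 0.51 ± 0.20, Fbxw7 1.11 ± 0.18, Cdc45 1.10 ± 0.23, Gmnn 1.58 ± 0.31, Rfc4 1.76 ± 0.26, Incenp 1.18 ± 0.21, Mad2l1 0.98 ± 0.23 and Mki67 1.502 ± 0.28, and more negative for Ccnd2 -4.08 ± 0.31, Ccne1 -1.41 ± 0.38 and Cdk6 -0.70 ± 0.24. Immune and vessel genes were more negative for Csf1r -1.61 ± 0.33, Fcgr1 -1.09 ± 0.29, Trim30a -1.15 ± 0.27, Eng -1.30 ± 0.23, Kdr -1.54 ± 0.31 and Ptprb -2.02 ± 0.41, and more positive for S100a8 3.66 ± 0.73, S100a9 3.43 ± 0.77 and Tcf7 1.77 ± 0.36. Of the Hox genes named, Hoxa2 1.57 ± 0.50 met the test.

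Some of these calls rest on a single library. Without VEH_7 replicate 1 the value was 7.74 (edgeR adjusted p = 0.122) for Alox12e, 2.79 (edgeR adjusted p = 0.178) for Cldn7, 3.25 (edgeR adjusted p = 0.182) for Ehf and 3.86 (edgeR adjusted p = 0.119) for Marveld3. It was then 2.82 (edgeR adjusted p = 0.0829) for Sox10, 1.37 (edgeR adjusted p = 0.0787) for Hoxa2, 1.69 (edgeR adjusted p = 0.717) for Csn1s1 and -0.29 (edgeR adjusted p = 0.885) for Csn2. S100a9 was 1.99 (edgeR adjusted p = 0.0527) without VEH_7 replicate 2, and Cdk6 was -0.69 (edgeR adjusted p = 0.0538), -0.67 (edgeR adjusted p = 0.0625) and -0.59 (edgeR adjusted p = 0.0635) without VEH_7 replicate 2, VEH_7 replicate 3 and VEH replicate 4. The calls of Cdk4, Wee1 and Chek2 were lost on leaving out any of 17, 16 and 6 libraries, respectively. Leaving out 1 library moved other called values by more than 1.5 times: without VEH replicate 1 the values were 5.72 for Erbb3, 5.24 for Esrp2, 6.24 for Prom1, 7.82 for Marveld3, 8.31 for Ehf, 5.96 for Cldn7, 4.63 for Sox10, 7.60 for Csn1s1, 7.59 for Csn2 and 11.10 for Alox12e. Without VEH_7 replicate 1 Erbb3 had 3.35. Without VEH_7 replicate 2 the values were 2.54 for S100a8, 4.91 for Cldn7, 7.02 for Ehf, 5.41 for Marveld3 and 6.46 for Csn2. Without VEH_7 replicate 3 they were 5.94 for Csn1s1 and 6.45 for Csn2. Brinp3 had -3.77 without VEH replicate 2, Chrdl1 -5.86 and Ogn -4.84 without VEH replicate 3. Of the treated libraries, MYT replicate 8 moved Acan to -10.06, Gfra2 to -6.05 and Il1rl1 to -7.52 when left out, MYT replicate 10 moved Ogn to -6.99, M20_7 replicate 1 moved Alox12e to 11.72, and M20_7 replicate 2 moved Csn1s1 to 7.28 and Csn2 to 10.67.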

How the results depend on the processing

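Every list direction named in the text held under both other scalings, which moved the median of all genes by less than 0.1 on the log2 scale. The count of genes under RP-6306 was 10578, and between 9774 and 10663 with 1 library left out. It was 9576 in 1 fit over 32 libraries, 10269 with thinned counts, 11834 with no filter on low counts, 10799 with DESeq2 and 11983 with limma voom and quality weights. Against a fold of at least 2 it was 3776 (1822 higher and 1954 lower in MYT). The vehicle count of 4817 became 753 against that fold and 2455 in 1 fit over 32 libraries, and ran from 3227 to 4624 with 1 library left out. The count for the difference of the set differences, 6151, became 1754 against that fold and 3501 in 1 fit over 32 libraries, and ran from 5047 to 6345. Against that fold 37.9% of its calls were positive, against 47.4% without it. A test against a fold asks for a larger effect, and the cause of the drop in the single fit was not tested.

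Over the named genes and settings under RP-6306, 3594 values were unchanged in call, 44 lost the call, and none that was called in either setting reversed. Direction was not compared where neither setting gave a call. The 3594 include total counts of calls that changed little. For the difference of the set differences, Csn2 reversed to -0.29 without VEH_7 replicate 1 (edgeR adjusted p = 0.885) and reached 10.67 without M20_7 replicate 2; each is the library that held nearly all casein counts of its group. Mki67 lost its call under RP-6306 in 1 fit over 32 libraries (edgeR adjusted p = 0.0509), as did Wee1 (edgeR adjusted p = 0.0983). The count of 14 chromosomes ran from 13 to 15 with 1 M20_7 library left out. The muscle and cartilage list, with 8 of 14 tested members higher, 4 lower and a median of 1.38, turned in direction with other settings. With no filter on low counts 7 of 23 were higher and 11 lower (median -0.85), in 1 fit over 32 libraries 7 of 20 were higher and 8 lower (median -0.33), and with the 400s titles alone the median was -0.03. The 3 members with the smallest p went both ways in the main fit. Col9a1 (10.74 ± 0.60 SE) and Col2a1 (7.85 ± 1.21 SE) were higher in MYT, and Acan (-8.02 ± 0.64 SE) was lower. The milk list had a median of 4.25 with no filter and 4.24 in that single fit, against 5.86. No paired analysis was possible because the labels give no replicate numbers shared between the groups. The depth of M20_7 exceeds that of MYT, and genes with no count in M20_7 have only a lower bound.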

Other observations

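The tumour titled as vehicle whose treatment field names RP-6306 belongs to no group. Its levels were 1.37 CPM for Epcam, 759 CPM for Krt8, 7.62 CPM for Cdh1, 5491 CPM for Vim, 97.9 CPM for Zeb1 and 31.6 CPM for Pkmyt1.

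Further lists are given by their counts between MYT and M20_7, against a background of 33.9% of genes higher and 31.1% lower. Of 30 tested genes of DNA repair and checkpoints 12 were higher in MYT and 11 lower (median 0.05), and of 24 p53 targets 9 were higher and 4 lower (median 0.21). Imprinted genes had 8 of 23 higher and 6 lower (median 0.01). Glycolysis genes had 10 of 19 higher and 4 lower (median 0.56), and fatty acid synthesis genes 3 of 16 higher and 5 lower (median -0.24). Immediate early genes were higher in 9 of 17 and lower in 3 (median 0.70), and heat shock and chaperone genes higher in 8 of 15 and lower in 2 (median 0.41). Dendritic cell genes were lower in 10 of 13 and higher in none (median -2.31), which stands beside the lower macrophage and MHC class II lists.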
